A study of Mus musculus with 6 samples.

Results

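The CDK inhibitors and the retinoblastoma family were described here across 6 RNA-seq libraries of C2C12 cells, a line of mouse myoblasts able to differentiate into multinucleated myotubes. The 10 members were taken by gene symbol from the 55401 genes of the count matrix: the Cip/Kip inhibitors *Cdkn1a* (p21), *Cdkn1b* (p27) and *Cdkn1c* (p57), the INK4 inhibitors *Cdkn2a*, *Cdkn2b*, *Cdkn2c* and *Cdkn2d*, and the pocket protein genes *Rb1*, *Rbl1* and *Rbl2*. The control group held 3 libraries, which the labels call wild type and the study's methods describe as mock cells given a plasmid with Cas9, ZsGreen and a guide without a match in the mouse genome. The *Phf2* KO group held 3 libraries of cells given 4 pooled plasmids of the same kind, each with a guide against *Phf2*, a gene for a histone H3K9 demethylase. Both groups were sorted for ZsGreen, frozen, and then kept in medium with horse serum until 2 d post differentiation. No single-cell cloning was done, so each group is a mixed pool. The libraries are wells of a single experiment, so p-values measure only the spread between these wells, and an effect of *Phf2* loss, of double-strand breaks or of the separate pools cannot be told apart.

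Myoblasts leave the cell cycle before they form myotubes, and this exit is known to become permanent. Cip/Kip proteins bind complexes of cyclins with cyclin-dependent kinases (CDKs), INK4 proteins bind CDK4 and CDK6, and both keep these kinases from phosphorylating the pocket proteins. Pocket proteins without that phosphorylation hold E2F transcription factors and silence genes of DNA replication. *Cdkn1a* is a classic target of p53 and is also known to rise in differentiating muscle cells, where MyoD can induce it without p53.

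The targeted gene was lower in all *Phf2* KO libraries. *Phf2* was at 102.4, 95.5 and 104.6 CPM (library-scaled counts) in control and at 41.1, 37.6 and 38.6 CPM in *Phf2* KO, so that RNA of the gene was still present in the edited pool. The study reported PHF2 protein to be much lower in the edited myoblasts, and the RNA level does not show how much protein remained. Library totals lay between 52526109 and 67502788 estimated counts. Differentiated muscle markers were abundant in every library, with a summed level of 8143 to 10243 TPM (a length-corrected share of the library) in control and 6662 to 7496 TPM in *Phf2* KO. The adipocyte list summed to at most 6.40 TPM with *Plin1* and *Lep* at 0 estimated counts, the osteoblast and cartilage list to at most 1.27 TPM with *Ibsp* at 0, and the endothelial and blood list to at most 3.45 TPM with *Tie1* and *Hbb-bs* at 0.

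Promoters are shown first for *Cdkn1a* and *Cdkn1b*, whose RNA levels passed the test in opposite directions, and for *Rbl1*, whose groups did not overlap. The sequences are the 250 bases before a transcription start in RefSeq (GRCm38.p6), written 5′ to 3′ on the strand of the gene. *Cdkn1a* has 2 such starts on the plus strand. The distal window is chr17:29090729-29090978, and the proximal window, chr17:29093519-29093768, lies in the first intron of the transcript *Cdkn1a-202*, between an exon that ends at 29091101 and one that starts at 29098397. The *Cdkn1b* window is chr6:134920151-134920400 on the plus strand, and that of *Rbl1* is chr2:157204535-157204784 on the minus strand. Capitals mark p53 half-sites and E-boxes (CANNTG, the motif of MyoD and its relatives) in *Cdkn1a*, CCAAT boxes in *Cdkn1b* and the E2F motif TTTCGCG in *Rbl1*.
*Cdkn1a* distal: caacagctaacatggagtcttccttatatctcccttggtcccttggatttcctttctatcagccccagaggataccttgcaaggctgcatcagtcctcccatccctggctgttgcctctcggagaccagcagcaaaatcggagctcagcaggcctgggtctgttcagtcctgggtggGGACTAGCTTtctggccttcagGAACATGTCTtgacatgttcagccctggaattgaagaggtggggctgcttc
*Cdkn1a* proximal: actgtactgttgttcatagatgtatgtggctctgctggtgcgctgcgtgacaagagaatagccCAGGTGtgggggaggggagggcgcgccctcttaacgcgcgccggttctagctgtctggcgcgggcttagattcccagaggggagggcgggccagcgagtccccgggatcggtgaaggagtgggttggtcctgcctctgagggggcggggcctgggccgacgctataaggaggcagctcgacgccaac
*Cdkn1b*: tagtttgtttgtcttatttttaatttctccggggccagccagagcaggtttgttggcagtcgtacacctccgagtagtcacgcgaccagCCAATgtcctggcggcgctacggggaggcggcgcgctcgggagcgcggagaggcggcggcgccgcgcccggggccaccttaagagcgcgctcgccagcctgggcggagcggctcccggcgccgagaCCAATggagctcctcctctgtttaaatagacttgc
*Rbl1*: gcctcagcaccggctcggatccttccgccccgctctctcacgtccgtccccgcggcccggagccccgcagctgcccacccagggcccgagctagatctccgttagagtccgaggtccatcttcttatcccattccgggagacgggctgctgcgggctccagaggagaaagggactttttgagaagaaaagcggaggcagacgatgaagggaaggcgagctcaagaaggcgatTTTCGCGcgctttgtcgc

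Both strands were searched, and none of the capital matches overlap each other. A p53 half-site had to match RRRCWWGYYY without a mismatch (R is A or G, W is A or T, Y is C or T). The distal *Cdkn1a* window held 2 p53 half-sites, beginning 73 and 51 bases before the start. The bases right after the second, tgacatgttc, depart from this pattern only at the first base and were not counted. The proximal window held 1 E-box, 187 bases before its start. In *Cdkn1b*, CCAAT boxes began 161 and 35 bases before the start, and neither an E-box nor a p53 half-site matched. In *Rbl1*, TTTCGCG began 18 bases before the start, and an E-box, not in capitals, lay 183 bases before it. Among the other members with an entry, TTTCGCG stood 200 bases before a start of *Cdkn2c*, a p53 half-site 102 bases and a CCAAT box 220 bases before that of *Cdkn2d*, and an E-box 37 bases before that of *Cdkn2b*. Of 32851 RefSeq promoter windows of this length, 66.2% held an E-box, 33.9% a CCAAT box, 7.13% a p53 half-site and 0.703% TTTCGCG. A match describes letters and not a bound site. *Cdkn1c* and *Rb1* were not matched to an entry.

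Of the 10 members, 8 had enough counts to be tested, and 2 of them passed the threshold, *Cdkn1a* lower and *Cdkn1b* higher in *Phf2* KO. Over the 17310 genes tested, 6.48% passed, 3.26% lower and 3.22% higher. The groups did not overlap in 4 of the 8 tested members (*Cdkn1a*, *Cdkn1b*, *Cdkn1c* and *Rbl1*), against 25.1% of all genes tested. The median log2 fold change of the tested members was 0.04, and that of all genes was -0.001. The median size of the change was 0.10 in the members and 0.13 in all genes.

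**Figure D1:**
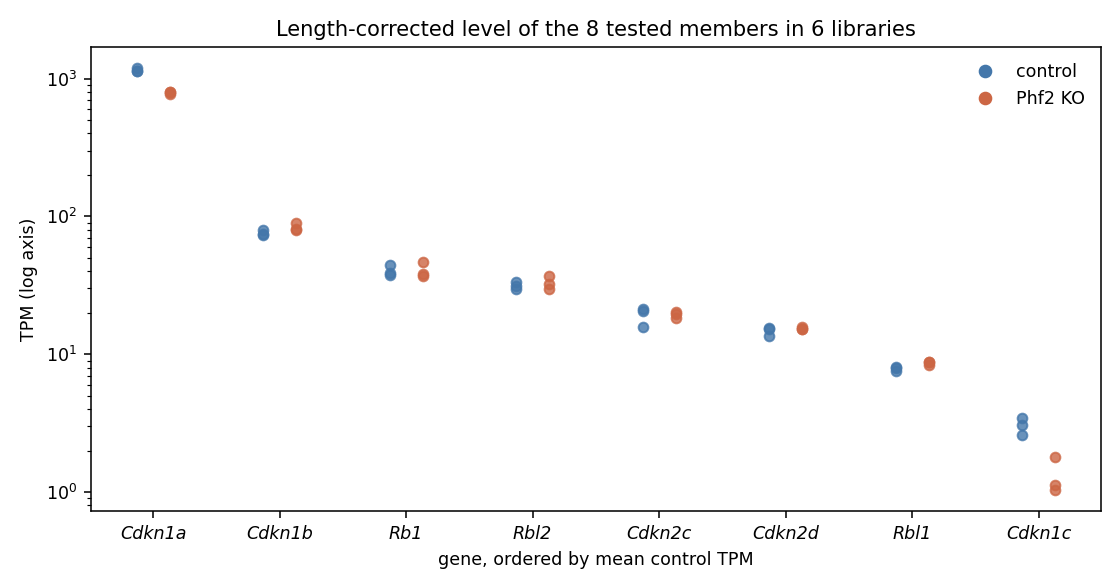
Level of the 8 tested members in TPM (log axis), which corrects for transcript length, with 1 point per library (blue, control; red, Phf2 KO) and genes ordered by mean control level. *Cdkn1a* stands at 775.7 TPM or more in every library and *Cdkn1c* at 3.46 TPM or less.

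Levels between genes were compared in TPM, which is scaled by length. The order of the 8 tested members was the same in all 6 libraries: *Cdkn1a*, *Cdkn1b*, *Rb1*, *Rbl2*, *Cdkn2c*, *Cdkn2d*, *Rbl1* and *Cdkn1c*. *Cdkn2a* and *Cdkn2b* were last, with *Cdkn2a* at 0 TPM in 4 libraries and *Cdkn2b* at 0 TPM in all 6. Within a group, no neighbours among these 8 had overlapping levels, although some came close. In control, the lowest *Cdkn2c* level was 15.9 TPM and the highest *Cdkn2d* level 15.5 TPM, and in *Phf2* KO the lowest *Rb1* level was 37.2 TPM and the highest *Rbl2* level 37.0 TPM.

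*Cdkn1a* (ENSMUSG00000023067, chr17:29090976-29100727, plus strand) encodes p21, an inhibitor of CDK2 complexes. It was at 1027, 1070 and 975.4 CPM in control and at 681.6, 689.3 and 662.7 CPM in *Phf2* KO. The 3 *Phf2* KO libraries lay close together and all below the lowest control library. The means were 1024 ± 47.3 and 677.8 ± 13.7 CPM (SD, n = 3 each), so *Phf2* KO stood at 66.2% of control. *Cdkn1a* fell by 0.60 on the log2 scale (SE 0.041, 95% interval -0.68 to -0.51, adjusted p = 3.45e-06, edgeR's quasi-likelihood test). In TPM the libraries read 1183, 1141 and 1142 in control and 775.7, 793.2 and 792.8 in *Phf2* KO, again without overlap. The fall was past the threshold in each of the 17 alternatives, with log2 fold changes between -0.63 and -0.55 and adjusted p of at most 0.00983.

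*Cdkn1b* (ENSMUSG00000003031, chr6:134920401-134925513, plus strand) encodes p27, which holds CDK2 complexes inactive in resting cells. Its level was 116.0, 109.7 and 112.9 CPM in control against 129.1, 120.3 and 131.5 CPM in *Phf2* KO. All *Phf2* KO libraries were above all control libraries, by a narrow margin between the lowest and the highest. *Cdkn1b* rose by 0.17 on the log2 scale (SE 0.047, 95% interval 0.07 to 0.27, adjusted p = 0.0443, edgeR's quasi-likelihood test), to 112.5% of control. The call was kept in 6 of the 17 alternatives, with adjusted p from 0.0228 to 0.393, and was lost in exactTest, the study's own test (adjusted p = 0.0716), and without any one library other than *Phf2* KO replicate 2. In TPM, *Cdkn1b* read 80.1, 73.6 and 74.4 in control and 80.5, 80.1 and 89.9 in *Phf2* KO, so the groups met at 80.1 TPM and overlapped by a small margin there.

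*Cdkn1c* (ENSMUSG00000037664, chr7:143458339-143461050, minus strand) encodes p57, an imprinted Cip/Kip inhibitor. It had 102, 97 and 103 estimated counts in control and 96, 54 and 46 in *Phf2* KO, where a read pair adds about 4 counts. *Phf2* KO replicate 1 was close to the control libraries, and the other two were lower. The levels were 1.79, 1.67 and 1.77 CPM against 1.56, 1.03 and 0.680 CPM. The log2 fold change was -0.68 (SE 0.31, 95% interval -1.35 to -0.004), with an unadjusted p of 0.0490 and an adjusted p of 0.254 by edgeR's quasi-likelihood test. It was not past the threshold in the 17 alternatives, whose adjusted p ran from 0.0931 to 0.542. The value was -0.42 without *Phf2* KO replicate 3, -1.03 without *Phf2* KO replicate 1 and -1.17 with limma on log2(TPM + 0.1).

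**Figure D2:**
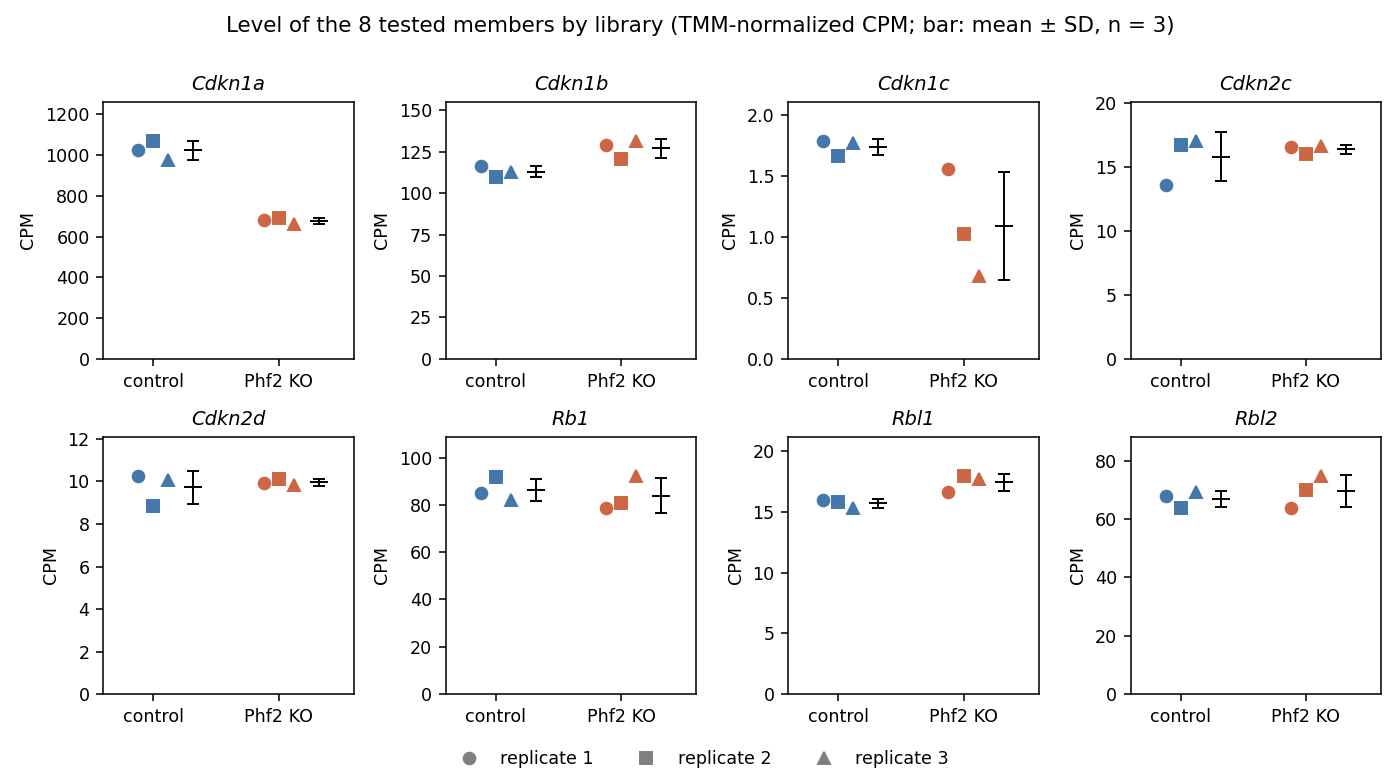
CPM of each tested member in its own panel, with 1 symbol per library (shape, replicate number), the group mean and its SD (n = 3), and an axis from 0. The groups are apart in *Cdkn1a*, *Cdkn1b*, *Cdkn1c* and *Rbl1* and overlap in the other 4 panels.

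The Cip/Kip genes were also described as a family. Their summed level was 1218 to 1266 TPM in control and 858 to 884 TPM in *Phf2* KO. *Cdkn1a* made up 93.4% to 93.7% of this sum in control and 89.7% to 90.7% in *Phf2* KO. The share of *Cdkn1b* was 6.05% to 6.33% and 9.16% to 10.2%. The ratio of *Cdkn1a* to *Cdkn1b* in TPM was 14.8, 15.5 and 15.4 in control and 9.63, 9.90 and 8.82 in *Phf2* KO, which did not overlap. *Cdkn1a* therefore remained the main Cip/Kip transcript in every library.

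The INK4 genes were low or near 0. *Cdkn2a* (ENSMUSG00000044303, chr4:89274471-89294653, minus strand), which encodes p16INK4a and p19ARF from separate first exons, had 6 estimated counts in control replicate 2 and 0 in the other libraries, while its deposited TPM were 0.174 in that library, 0.074 in control replicate 1 and 0 in the rest. *Cdkn2b* (ENSMUSG00000073802, chr4:89306299-89311039, minus strand), the p15 gene, had 0 in all 6. A count of 0 allows a level of up to 0.177 to 0.228 CPM, depending on the library (3 read pairs, or 12 estimated counts, counting error only), and *Cdkn2a* in control replicate 2 was also under that limit. Neither gene was tested, and no fold change is given.

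*Cdkn2a* and *Cdkn2b* are neighbours, separated by 11645 bp. The next gene considered, *Mtap*, an enzyme of methionine salvage that ends 93389 bp from *Cdkn2a*, was expressed in every library, at 79.1, 72.9 and 81.4 CPM in control and 85.3, 84.9 and 85.9 CPM in *Phf2* KO. Its log2 fold change of 0.13 did not pass (adjusted p = 0.149, edgeR's quasi-likelihood test). Reads were present at *Mtap* in the same libraries in which both of these INK4 genes were at or under the limit. Reads of *Mtap* say nothing of the DNA of *Cdkn2a* and *Cdkn2b*. Whether that DNA is present in these cells was not tested.

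*Cdkn2c* (ENSMUSG00000028551, chr4:109660876-109667189, minus strand), the p18 gene, was at 13.6, 16.7 and 17.0 CPM in control and 16.5, 16.0 and 16.6 CPM in *Phf2* KO. Control replicate 1 was the lowest library, and the groups overlapped. The log2 fold change was 0.05 (SE 0.10, 95% interval -0.16 to 0.27, adjusted p = 0.845, edgeR's quasi-likelihood test), and its direction turned without control replicate 1, at -0.05. *Cdkn2d* (ENSMUSG00000096472, chr9:21288410-21291407, minus strand), the p19INK4d gene, was at 10.3, 8.84 and 10.1 CPM in control and 9.93, 10.1 and 9.81 CPM in *Phf2* KO. Here too the groups overlapped, with a log2 fold change of 0.03 (95% interval -0.21 to 0.28, adjusted p = 0.918, edgeR's quasi-likelihood test). Together the INK4 genes summed to 34.1 ± 2.51 TPM in control and 34.7 ± 0.833 TPM in *Phf2* KO.

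*Rb1* (ENSMUSG00000022105, chr14:73183673-73325822, minus strand) encodes the retinoblastoma protein, which is known to be needed for lasting cell cycle exit in muscle. It was at 85.1, 91.6 and 82.1 CPM in control and 78.8, 80.8 and 92.2 CPM in *Phf2* KO. Both the lowest and the highest library were *Phf2* KO libraries. The log2 fold change was -0.04 (SE 0.063, 95% interval -0.18 to 0.10, adjusted p = 0.814, edgeR's quasi-likelihood test), and its sign turned in 4 of the 17 alternatives.

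*Rbl1* (ENSMUSG00000027641, chr2:157145893-157204534, minus strand), the p107 gene, which is itself known as an E2F target, was at 16.0, 15.8 and 15.3 CPM in control and 16.6, 18.0 and 17.7 CPM in *Phf2* KO. All *Phf2* KO libraries were above the control libraries, but the difference did not pass the test (log2 fold change 0.15, SE 0.085, 95% interval -0.03 to 0.33, adjusted p = 0.371, edgeR's quasi-likelihood test). *Rbl2* (ENSMUSG00000031666, chr8:91070057-91123844, plus strand), the p130 gene, whose protein is the main pocket protein on E2F targets in resting cells, was at 67.9, 63.9 and 69.1 CPM in control and 63.8, 70.0 and 74.8 CPM in *Phf2* KO. Its groups overlapped, and the log2 fold change was 0.05 (95% interval -0.08 to 0.19, adjusted p = 0.712, edgeR's quasi-likelihood test).

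Among the pocket protein genes, *Rb1* held 47.4% to 53.9% of the summed TPM in the 6 libraries, *Rbl2* 36.3% to 42.2% and *Rbl1* 9.6% to 11.2%. The sum was 79.5 ± 2.09 TPM in control and 82.2 ± 8.83 TPM in *Phf2* KO. *Rb1* overlaps *Rcbtb2* and *Lpar6*, and *Rbl2* overlaps *Aktip*, each on the opposite strand. The kit keeps strand, but the strand setting of the counting is not given in the sources used here. *Aktip* had up to 64.3% and *Rcbtb2* up to 43.4% of its neighbour's count. These are counts of whole genes, and the exon bases that the pairs share were not measured. Without strand, reads from shared bases cannot be told apart, so the values of *Rb1* and *Rbl2* are uncertain to an unknown extent.

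**Figure D3:**
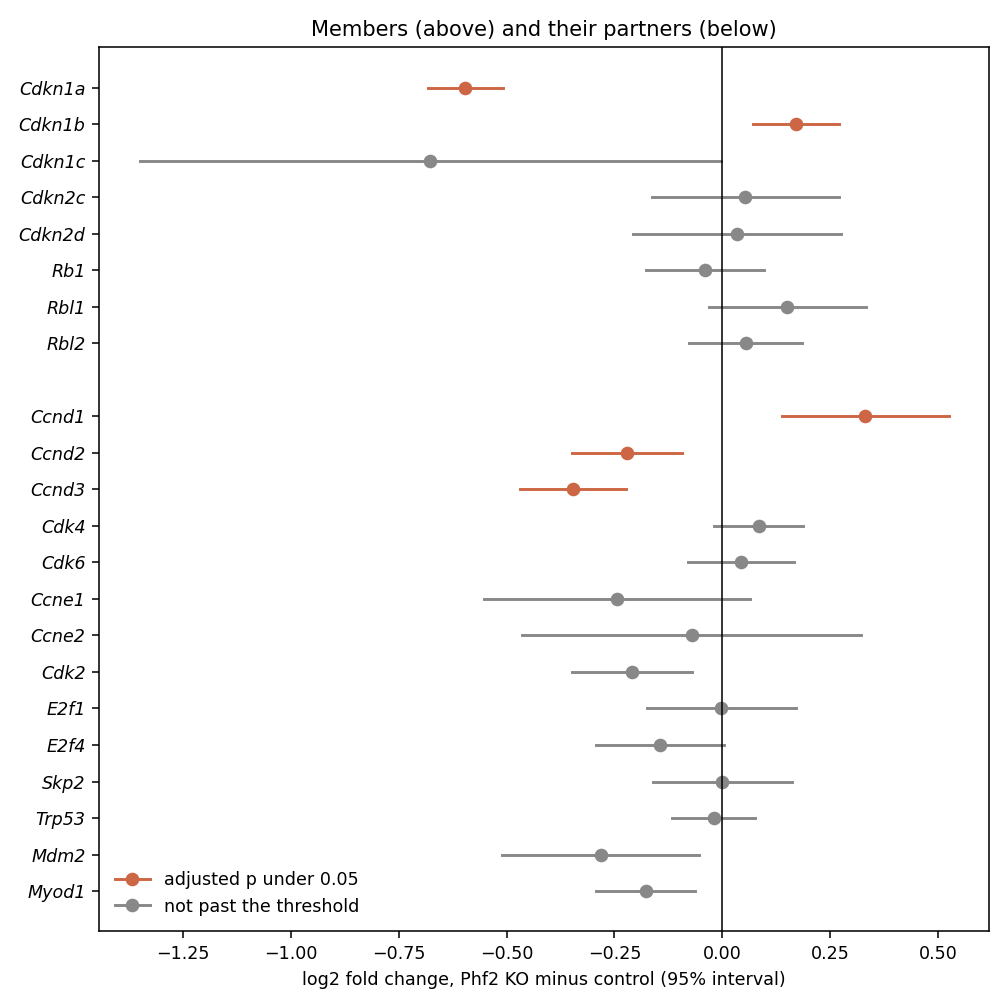
Log2 fold change (Phf2 KO over control) of the 8 tested members (above) and of 14 partner genes (below) with 95% intervals from the edgeR fit, coloured where past the threshold. The interval of *Cdkn1a* runs from -0.68 to -0.51, and that of *Cdkn1c*, the widest drawn, from -1.35 to -0.004.

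The kinases and cyclins that these inhibitors bind were counted next. Of 20 tested genes of cyclins, CDKs and their regulators, 3 passed, 1 higher and 2 lower, with a median log2 fold change of -0.08. Over all genes tested, 6.48% passed, 3.22% higher and 3.26% lower. The D-type cyclins, which activate CDK4 and CDK6, made up all 3. *Ccnd3*, the D-type cyclin that accumulates in differentiating muscle, was at 259.2, 248.3 and 223.4 CPM in control and 202.0, 189.0 and 183.9 CPM in *Phf2* KO. The groups were apart, and *Ccnd3* fell by 0.35 on the log2 scale (SE 0.057, adjusted p = 0.00253, edgeR's quasi-likelihood test), a call kept in 15 of the 17 alternatives. *Ccnd2* fell by 0.22 (adjusted p = 0.0415, kept in 9 of 17 and lost with the replicate block, at an adjusted p of 0.0535). *Ccnd1*, the D-type cyclin of proliferating myoblasts, rose by 0.33 (adjusted p = 0.0497, kept in 7 of 17), and its highest control library, at 61.3 CPM, was just under the lowest *Phf2* KO library, at 61.8 CPM.

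The catalytic partners did not pass the test. The log2 fold change of *Cdk4* was 0.08 (adjusted p = 0.374), that of *Cdk6* 0.04 (adjusted p = 0.760) and that of *Cdk2* -0.21 (adjusted p = 0.0766, past the threshold in 2 of 17 alternatives). The E-type cyclins, which work with CDK2, were at -0.24 for *Ccne1* (adjusted p = 0.399) and -0.07 for *Ccne2* (adjusted p = 0.893).

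Downstream of the pocket proteins, 2 of 18 tested genes of the E2F, DP and MuvB complexes passed, both lower, with a list median of -0.01 (6.48% of all genes tested passed). They were *E2f2*, an activating E2F, at -0.54 (adjusted p = 0.0147, 12 of 17 alternatives, lost without control replicate 2, Phf2 KO replicate 2 or Phf2 KO replicate 3), and *E2f8*, a repressing E2F, at -0.38 (adjusted p = 0.0492, 7 of 17). *E2f1* was at -0.003 (adjusted p = 0.992) and *E2f4*, the partner of p130 in resting cells, at -0.14 (adjusted p = 0.273). Of 26 replication genes known to be driven by E2F, 1 passed, *Rrm2*, a subunit of ribonucleotide reductase, at -0.31 (adjusted p = 0.0138, 14 of 17 alternatives, lost at 0.0725 without control replicate 2). The median of that list was -0.02, with 13 genes above and 13 below 0, and its 1 call stands against 6.48% of all genes tested.

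In the p53 pathway, 5 of 25 tested genes passed, 2 higher and 3 lower, against 6.48% of all genes tested. The median log2 fold change of the list was -0.02. *Cdkn1a* was not counted in this list. *Eda2r*, a death receptor, fell by 0.41 (SE 0.055, adjusted p = 6.17e-04, 17 of 17 alternatives), while the apoptosis genes *Pmaip1* and *Bax* fell by 0.48 (adjusted p = 0.0290) and 0.23 (adjusted p = 0.0255), each kept in 11 of 17 alternatives. *Trp53inp1*, a p53 cofactor, rose by 0.38 (adjusted p = 0.0344, 10 of 17), and the fifth gene, *Mdm4*, which restrains p53 and was named after its value was seen, rose by 0.20 (adjusted p = 0.0295). *Trp53* itself was at -0.02 (adjusted p = 0.873). *Mdm2*, the ubiquitin ligase for p53 and also its target, was at -0.28 (adjusted p = 0.162) and passed in 3 of the 17 alternatives. With the replicate number as a block, 9 genes of the list passed, 2 higher and 7 lower, against 1316 of 17310 over all genes. Without control replicate 2, 1 passed, against 468 of 17842 over all genes.

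Of 24 tested genes for turnover and repression of the inhibitors, 1 passed, against 6.48% of all genes tested. *Bmi1*, a Polycomb protein known for silencing *Cdkn2a*, rose by 0.24 (adjusted p = 0.0441, 10 of 17 alternatives). *Skp2*, the ubiquitin ligase subunit that marks p27 for degradation, was at -0.0005 (adjusted p = 0.998). The median of the list was 0.04, and with the replicate block 2 genes passed, against 1316 of 17310 over all genes.

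Of the 13 myogenic regulators tested, 4 passed, all lower, against 6.48% of all genes tested. The list median was -0.18, with 7 genes lower and 6 higher. The higher ones reached a log2 fold change of 2.39, and 0 of them passed in the fit reported. The 4 past the threshold were *Mef2c* at -1.52 (adjusted p = 6.97e-05, kept in 15 of 17 alternatives), *Myog* at -0.34 (adjusted p = 0.0221, 11 of 17), *Mef2d* at -0.28 (adjusted p = 0.00173, 15 of 17) and *Mef2a* at -0.21 (adjusted p = 0.0156, 13 of 17). The call of *Myog* was lost without control replicate 1 or 2 and without *Phf2* KO replicate 2 or 3, and that of *Mef2a* without control replicate 2 or *Phf2* KO replicate 2. *Myod1* was at -0.18 (adjusted p = 0.0679). With exactTest, 5 genes of the list passed, 1 higher and 4 lower, against 1129 of 17310 over all genes. Differentiated muscle markers, a list that also holds *Myog*, differed between the groups in the same direction as *Cdkn1a*: all 10 were lower and 7 passed, with a median of -0.41. The undifferentiated myoblast list summed to 374 to 450 TPM in control and 485 to 498 TPM in *Phf2* KO, with 6 of 10 genes higher and 1 past the threshold. Their part in the fall of *Cdkn1a* was not tested, and in bulk RNA fewer cells of a type and less RNA per cell cannot be told apart.

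**Figure D4:**
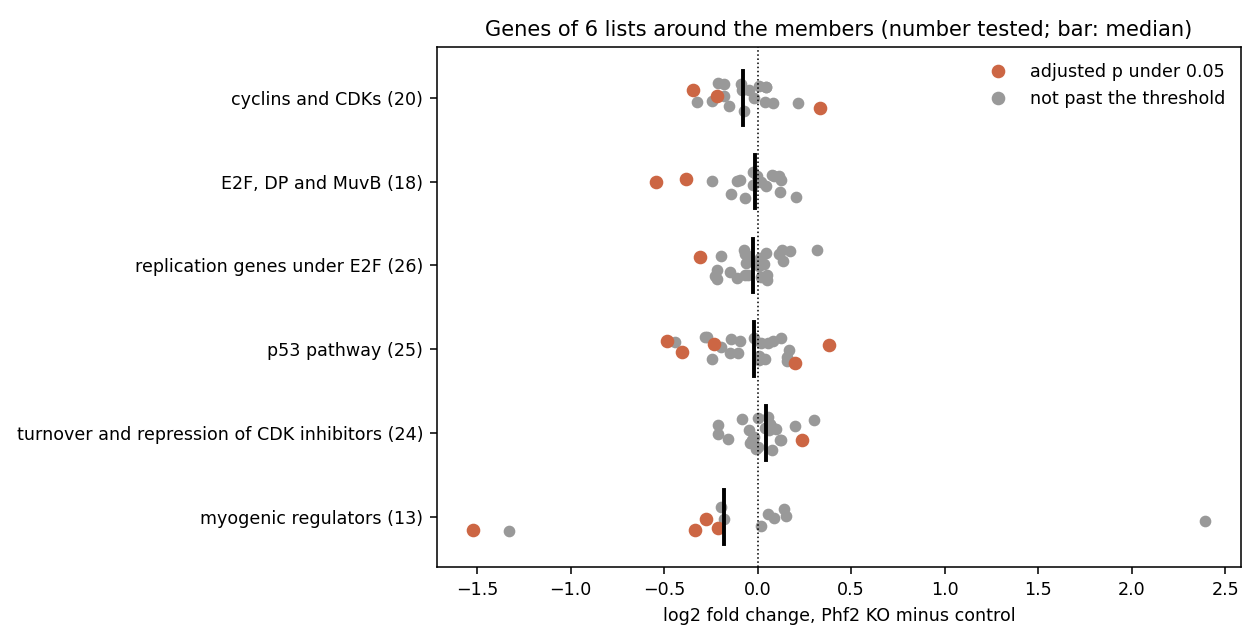
Log2 fold change (Phf2 KO over control) of each tested gene in the 6 pathway lists, with 1 point per gene, coloured where past the threshold, and a bar at the list median. Medians lie between -0.18 (myogenic regulators) and 0.04 (turnover and repression of CDK inhibitors).

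The genes whose CPM followed *Cdkn1a* most closely over the 6 libraries, out of 9612 genes averaging 10 CPM or more, were *Ank1* (Pearson r 0.998), *Rbm38* (0.997) and *Esyt1* (0.995). The r values are a description over 6 libraries that form 2 groups, and the groups did not overlap in any of these genes. *Ank1* was at -0.54, *Rbm38* at -0.58 and *Esyt1* at -0.28 on the log2 scale.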

How the data were processed

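Libraries were made from poly(A) RNA with a directional kit. HISAT2 (build mm10) and StringTie were the authors' aligner and counter, with versions not given in the sources used here. The deposited matrix holds estimated counts, equal to coverage times length divided by 75, so that a pair of 150 bp reads adds about 4. The deposited tables of single libraries give TPM, a signal scaled by the authors to a fixed library total, and coverage, the authors' mean depth per base, used only to find the unit. Coordinates are as deposited and equal GENCODE M21 (GRCm38) for all 10 members.

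Estimated counts were tested in R 4.3.3 with the robust quasi-likelihood test of edgeR 4.0.16 (TMM scaling, filterByExpr with a minimum count of 10) over 17310 genes. Every adjusted p-value is from this fit with Benjamini-Hochberg adjustment except where a sentence names another tool, at a threshold of 0.05. CPM were counts over TMM-scaled library sizes. TPM serve for levels between genes and were tested only in 2 of the alternatives.

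The members and gene lists were chosen with earlier results of these data known. Named were all members, *Phf2*, 14 direct partners, *Mtap*, up to 4 genes past the threshold with the largest change in each list, and the 3 genes most like *Cdkn1a*.

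The 17 alternatives were exactTest, DESeq2 1.42.0, limma-voom (limma 3.58.1), other scalings, other filters, counts divided by 4, a replicate block, limma on log2 TPM and leaving out each library. Same-numbered libraries deviated together from their group means (correlations of 0.235, 0.258 and 0.168 across 10923 genes, which are not independent replicates). Differently numbered ones did not (-0.241 to -0.002). Deviations from a group mean cancel within the group, so these lower values are not separate evidence. The numbers may pair the samples, which was not tested, and the methods describe no pairing. The fit reported leaves the numbers out. The procedure was tested on simulated data. Figures were drawn with Python 3.11.15.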

Additional observations from a re-analysis of the deposited data

How the results depend on the processing

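Of the members, *Cdkn1a* kept its direction and its call in the 17 alternatives. The count of members past the threshold, 2, was 1 with exactTest, limma-voom, upper-quartile scaling, no filter and both TPM fits, and 1 to 2 when a library was left out. Log2 fold changes turned direction when a library was left out in *Cdkn2c* (-0.046 to 0.11), *Cdkn2d* (-0.029 to 0.072), *Rbl2* (-0.0014 to 0.11) and *Rb1* (-0.11 to 0.0054, with 0.0051 without Phf2 KO replicate 1). *Rb1* also turned with limma on log2(TPM + 1) and log2(TPM + 0.1), at 0.0081 and 0.0082. These genes did not pass in the fit reported or in the alternatives.

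Over all genes, 1122 passed, 127 with limma on log2(TPM + 1), 153 on log2(TPM + 0.1), and 468 to 1039 when a library was left out, lowest without control replicate 2. It was 577 without Phf2 KO replicate 2, and leaving out Phf2 KO replicate 3 gave 613. Other alternatives raised the count: 1527 with DESeq2, 1316 with the replicate block, 1129 with exactTest and 1171 of 28228 genes with no filter. Division of the counts by 4 gave 1286 of 14163 genes, and the filter at 1 CPM gave 1264 of 13441. Limma-voom gave 916, upper-quartile scaling 1103 and DESeq2 size factors 1117. With both TPM fits, 0 genes passed in the lists of cyclins and CDKs, E2F, replication, turnover and myogenic regulators, and 1 passed in the p53 list. At an unadjusted p under 0.05 the fit on log2(TPM + 1) counted 5 of 20, 4 of 18, 1 of 26, 1 of 24 and 6 of 13 in those 5 lists. Over all genes that fit counted 2500 of 17310 at the same limit. The p53 count, 5, was 8 with exactTest, 9 with DESeq2 and 9 with the replicate block. The turnover count, 1, was 2 with the block and 0 with limma-voom. At an unadjusted p under 0.05 limma-voom counted 5 of 24 turnover genes, against 3411 of 17310 over all genes. Limma-voom gave 1 for cyclins and CDKs and 1 for E2F, where exactTest also gave 1. Leaving out a library gave 1 to 3 for cyclins and CDKs, 0 to 1 for E2F, replication and turnover, 1 to 4 for p53 and 2 to 4 for myogenic regulators. Without control replicate 2 the calls of *Bax*, *Bmi1*, *Ccnd1*, *Ccnd2*, *E2f2*, *E2f8*, *Mef2a*, *Myog*, *Pmaip1*, *Rrm2* and *Trp53inp1* were lost, and all of these but *Bax* and *Rrm2* also lost theirs without Phf2 KO replicate 2. *Ccnd3*, *Eda2r*, *Mef2c* and *Mef2d* kept their calls without each library in turn. Among the members, partners and list genes followed through the alternatives (*Mdm4* was not), the block took the call from *Ccnd2* and gave one to *Mdm2* (adjusted p = 0.017), and *Cdkn1b* kept its call under it (adjusted p = 0.0286). The cause of these differences was not tested. Depth limits what can be said of *Cdkn2a* and *Cdkn2b*.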
